A study of Mus musculus with 50 samples.

Results

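The healed stump of non-regenerative mouse digits was compared at post-amputation day 21 with digits taken at 0 hours. These are 6 of the 50 samples of the series, 3 digits at 21 days and 3 digits at 0 hours, chosen by the group and time in their labels. All 6 are wound beds of the distal terminal phalanx (P3) of a hindlimb digit 3 from young adult male C57Bl/6 mice, amputated under isoflurane and left to heal without sutures. The 0-hour digits were amputated too and were collected at once, so both groups share the amputation and differ in the time since. The labelled amputation levels were 62%, 62% and 75% of P3 at 0 hours and 71%, 79% and 79% at 21 days. The study defines a non-regenerative digit by removal of more than 67% of P3, and 2 of the 3 labels at 0 hours are below that. The methods describe separate mice within a time point, but the labels name no animal, and p-values measure only the spread between these digits. The labels date 1 digit at 0 hours to July 2015 and the other 5 to November 2015 or later, and what the date marks is not stated.

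The stump of a digit amputated this far closes with skin and does not replace the lost bone. Closure of such a wound is known to pass through inflammation, cover by keratinocytes, and deposition of a fibrous matrix by fibroblasts. That matrix is built of collagen fibrils, which are folded in the cell with the help of chaperones and hydroxylases, cut and cross-linked outside it, and spaced by small proteoglycans and matricellular proteins. In intact P3 the bone encloses marrow, which holds red cell precursors and B cells as well as blood.

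Each digit was sequenced as 1 library of polyadenylated RNA, and the authors deposited an expected count per gene. The totals ran from 4747702 to 10608244 counts at 0 hours and from 10538360 to 13011782 at 21 days. Levels below are normalized counts, which are counts scaled to a common effective library size, unless CPM or another unit is named. CPM are also counts scaled by an effective library size, here with TMM factors taken over all 41 digits. A CPM sum therefore differs from the share of all counts in a digit. The labelled tissue is a mixture of cells around the wound bed, and its defining markers were present in all 6 digits. The basal keratin Krt5 had 27463, 33289 and 30238 normalized counts at 0 hours and 34244, 28509 and 29982 at 21 days, and Krt14 had 47577, 56098 and 53474 against 49584, 37364 and 49515. The bone matrix gene Ibsp had 599, 503 and 368 at 0 hours and 4387, 482 and 1523 at 21 days. Krt5, Krt14 and Ibsp did not pass the test. In a bulk digit, fewer cells of a type and less RNA per cell cannot be told apart.

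A gene was called when the adjusted p of edgeR's quasi-likelihood test (Benjamini-Hochberg, over all 13712 genes tested) was below 0.05 and the mean normalized count plus 1 differed more than 2-fold. At 21 days 54 genes were called higher, which is 0.394% of the genes tested, and 8 were called lower, which is 0.0583%, or 0.452% in either direction. Of the genes called higher, 29 are in the lists of collagens, collagen-processing enzymes and other extracellular matrix genes described below, and 23 are in no list. The 54 had log2 fold changes from 1.30 to 6.40 and a median of 2.63. The genes called lower included 4 globin genes, the erythroid enzyme gene Alas2 and the B-cell receptor gene Cd79a. The groups did not overlap in any of these 62 genes. Over all genes tested, every 21-day digit was above every 0-hour digit in 7.11% and below in 6.09%. The median log2 fold change of all genes tested was -0.0037, and 987 genes had an unadjusted p below 0.05. DESeq2, an alternative test run on the same 13712 genes, called 183 higher and 69 lower. Its counts of list members below are to be read beside these larger totals.

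The 54 genes together held 0.454% to 0.806% of all counts at 0 hours and 4.05%, 2.42% and 5.22% in the 3 digits at 21 days. The third digit at 21 days had the highest level of its group for 40 of the 54 genes, and the second digit had the lowest for 40. At 0 hours the digit dated July 2015 was the highest for 37 of the 54. The median coefficient of variation between digits of one time was 25.7% at 0 hours and 30.5% at 21 days. The 8 genes called lower held 0.109% to 0.157% of all counts at 0 hours and 0.00105% to 0.00642% at 21 days.

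**Figure D1:**
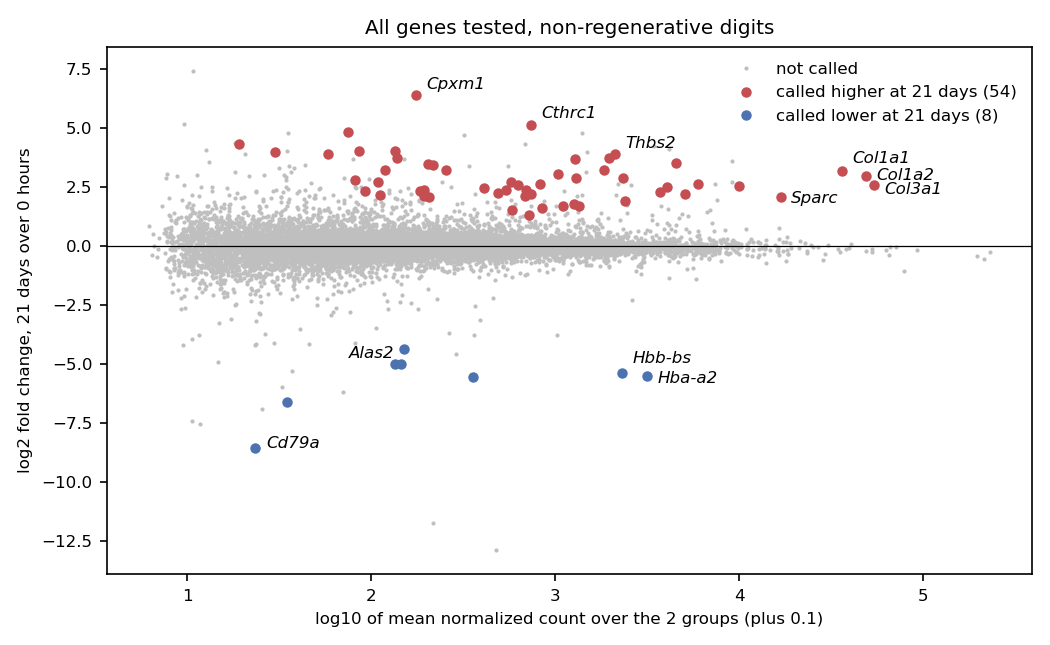
Log2 fold change of 21 days over 0 hours (vertical axis) against the log10 of the mean normalized count (horizontal axis) for the 13712 genes tested, with the 54 genes called higher in red, the 8 called lower in blue and all others in grey. The type I and III collagen genes and Sparc lie at the high end of expression, and the fitted position of Cd79a, which had 0 counts at 21 days, is no measured fold.

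The number of calls depended on single digits. Without the 0-hour digit dated July 2015, all remaining digits came from the later dates, and 30 genes were called higher and 7 lower. Of the 54 and the 8 genes, 27 and 4 were called again, and all kept their direction. By list, these later digits gave 5 of the 21 collagens in place of 13, 2 of the cross-linking genes in place of 3, 7 of the matricellular genes in place of 10, 2 of the proteoglycans in place of 1, none of the metalloproteinases in place of 2, and 3 of the erythroid genes in place of 5. Leaving out one of the other 0-hour digits left 5 or 4 calls, and leaving out one 21-day digit left 13, 77 or 28. The 2 genes called higher in each of these 6 fits were Thbs2 and Cpxm1, and the 1 gene called lower in each was Alas2. Adding the labelled amputation level to a fit of all 29 non-regenerative digits left 5 calls, against 9 without it. Levels and times go together in part in the 6 digits, and the part of the level in these changes was not tested.

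The promoters of 4 genes with large changes are shown, 3 called higher and 1 called lower, so that the sequence before their starts can be read beside the changes. Each is the 250 bases before the RefSeq start on the GRCm38.p6 build, written 5′ to 3′ on the strand of the gene. Col3a1 (chr1:45311288-45311537, + strand), Thbs2 (chr17:14694263-14694512, - strand) and Cpxm1 (chr2:130397630-130397879, - strand) are matrix or secreted protein genes called higher, and Hba-a2 (chr11:32296242-32296491, + strand) is an alpha-globin gene called lower. Capitals mark matches, on either strand, to the letters TATAAA of the box bound at many gene starts, to CCAAT of the box named after it, to AGATAA as read by erythroid zinc-finger factors, to TGTGGT as read by RUNX factors, and to TGANTCA as read by AP-1.
Col3a1: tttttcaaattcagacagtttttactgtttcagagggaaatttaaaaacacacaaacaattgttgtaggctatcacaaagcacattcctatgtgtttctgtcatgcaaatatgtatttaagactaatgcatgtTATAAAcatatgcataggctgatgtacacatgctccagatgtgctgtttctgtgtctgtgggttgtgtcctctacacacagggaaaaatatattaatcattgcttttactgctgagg
Thbs2: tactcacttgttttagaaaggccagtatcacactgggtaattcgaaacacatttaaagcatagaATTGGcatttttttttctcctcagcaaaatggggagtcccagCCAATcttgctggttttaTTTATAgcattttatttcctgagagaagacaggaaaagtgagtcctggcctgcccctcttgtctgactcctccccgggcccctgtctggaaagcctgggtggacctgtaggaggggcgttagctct
Cpxm1: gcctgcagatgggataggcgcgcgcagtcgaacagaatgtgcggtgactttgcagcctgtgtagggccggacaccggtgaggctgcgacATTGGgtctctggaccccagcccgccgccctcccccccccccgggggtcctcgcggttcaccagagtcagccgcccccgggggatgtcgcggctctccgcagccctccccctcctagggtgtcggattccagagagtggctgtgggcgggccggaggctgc
Hba-a2: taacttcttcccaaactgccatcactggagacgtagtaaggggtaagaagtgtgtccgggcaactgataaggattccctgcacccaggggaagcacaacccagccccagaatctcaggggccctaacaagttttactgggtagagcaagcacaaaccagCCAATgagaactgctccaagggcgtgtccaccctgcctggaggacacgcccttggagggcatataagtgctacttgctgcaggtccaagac

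The RefSeq table held a promoter for 40 of the 54 genes called higher and 6 of the 8 called lower. CCAAT was found in 16 of the 40 windows (40%) and in 36.2% of the 10848 windows of all genes tested. TATAAA was found in 6 of the 40 (15%) against 7.34% of all genes tested. TGTGGT was in 4 of the 40 (10%) against 10.6%, and TGANTCA and AGATAA were each in 2 of the 40 (5%) against 4.92% and 5.9%. Among the 6 windows of genes called lower, CCAAT was in 4 and TATAAA and AGATAA were in 2 each. Over all 27025 promoters of the table, the shares were 34.5% for CCAAT, 13% for TATAAA, 14.2% for TGTGGT, 10.3% for AGATAA and 6.87% for TGANTCA. These are matches of letters only.

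The fibrillar collagens carried most of the reads of the genes called higher. Col1a1, which encodes the first chain of type I collagen, had 9666, 5333 and 6656 normalized counts at 0 hours and 86895, 40435 and 67529.6 at 21 days (log2 fold change 3.17 ± 0.39 (SE), adjusted p = 0.0232). Col1a2, the partner chain of the same fibril (chr6:4504814-4541544, + strand, GRCm38), had 14381, 8491 and 10487 at 0 hours and 103312, 51704 and 104325 at 21 days (log2 fold change 2.96 ± 0.38 (SE), adjusted p = 0.0264). In both genes the groups were far apart, and the second digit at 21 days was the lowest of its group.

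Col3a1, the fibrillar collagen of young and pliable connective tissue (chr1:45311538-45349706, + strand), had 18539, 12108 and 15971 at 0 hours and 75576, 66984 and 134087 at 21 days (log2 fold change 2.57 ± 0.36 (SE), adjusted p = 0.0331). On the per-length scale of normalized TPM, Col3a1 was the highest of the 54 genes at 21 days, with a mean of 6447 against 1035 at 0 hours. Col1a2 followed with 2901 against 446, Sparc with 2205 against 520.2 and Col1a1 with 1878 against 210.1. An annotated exon of Gm47302 overlaps Col3a1 on the same strand, so that some reads could belong to either.

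Of the 21 collagen genes listed, all 21 were tested and 13 were called higher, none lower, with a median log2 fold change of 2.20, and DESeq2 called 15. The minor fibrillar chains that set fibril diameter were among them, namely Col5a1 (2.65 ± 0.31), Col5a2 (2.56 ± 0.36) and Col11a1 (3.67 ± 0.28). Col12a1, a collagen that sits on the surface of fibrils, had 384, 212 and 234 normalized counts at 0 hours and 3961, 2573 and 4463 at 21 days (log2 fold change 3.73 ± 0.33 (SE), adjusted p = 0.00714). All 3 chains of the beaded-filament collagen VI were called, with log2 fold changes of 2.20 for Col6a1, 2.51 for Col6a2 and 2.87 for Col6a3. Col16a1 (1.90 ± 0.28), Col8a1 (1.71 ± 0.19) and Col8a2 (3.22 ± 0.50) complete the 13. Col24a1, a further fibrillar collagen outside the list, had 27.8, 33.3 and 37.1 and 352, 276 and 492 (log2 fold change 3.49 ± 0.28 (SE), adjusted p = 0.00457).

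Collagens of basement membrane and epidermal attachment gave smaller values. Col4a1, of basement membranes, had a log2 fold change of 1.39 ± 0.29 with an adjusted p of 0.158, Col7a1, which forms anchoring fibrils, had 0.60 ± 0.24 with 0.651, and Col17a1, a hemidesmosome collagen of basal keratinocytes, had 0.09 ± 0.22 with 0.989. These 3 did not pass the test of edgeR.

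**Figure D2:**
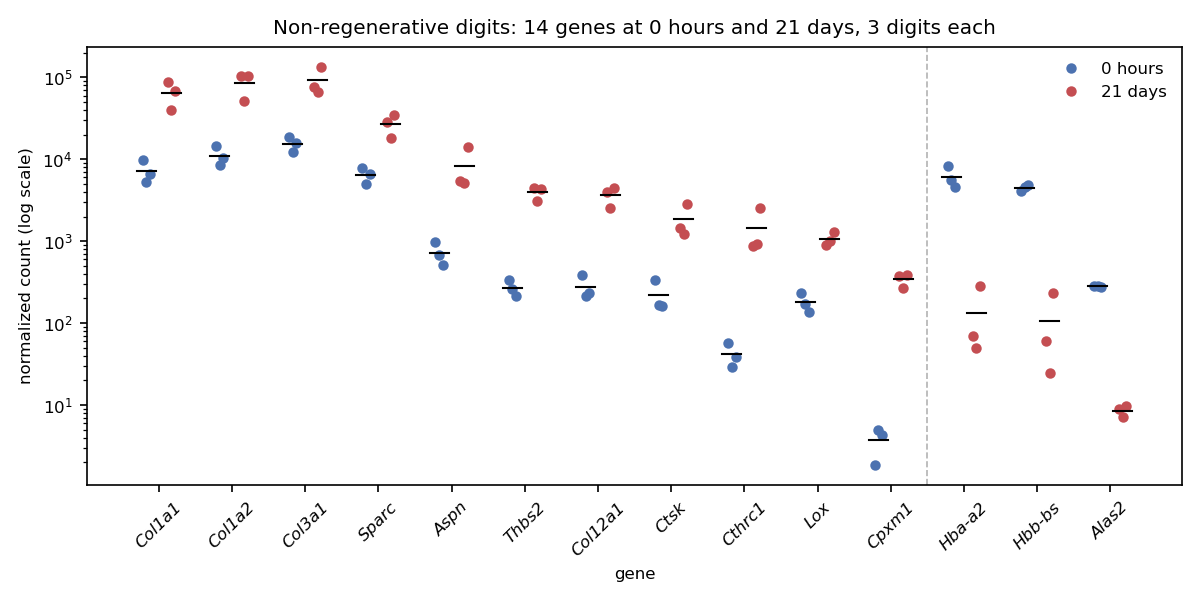
Normalized counts on a log scale (vertical axis) of 14 called genes, with 1 point per digit at 0 hours (blue) and 21 days (red) and a black line at the mean of the 3 digits. To the left of the dashed line the 3 digits at 21 days lie above the 3 at 0 hours for each of the 11 genes, and to its right they lie below for Hba-a2, Hbb-bs and Alas2.

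Among 23 genes for folding and cross-linking collagen, 3 were called higher and none lower, and the median log2 fold change was 1.02. DESeq2 called 10 of the 23 higher. P4ha3, a subunit of prolyl 4-hydroxylase, had 24.1, 19.6 and 26.2 normalized counts at 0 hours and 198, 98.4 and 347 at 21 days (log2 fold change 3.20 ± 0.49 (SE), adjusted p = 0.0453). Lox, the lysyl oxidase that starts cross-linking, had 234, 170.5 and 136 and 899.9, 1009 and 1307 (log2 fold change 2.58 ± 0.25 (SE), adjusted p = 0.0132). Serpinh1, the collagen chaperone of the endoplasmic reticulum, had 508, 363 and 383 and 1139, 1186 and 1529 (log2 fold change 1.62 ± 0.20 (SE), adjusted p = 0.0247). No digit at 21 days overlapped with a digit at 0 hours in these 3 genes. In the same list 17 of the 23 genes were higher at an unadjusted p below 0.05.

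Matricellular and elastic fibre genes gave 10 of 27 called higher, none lower, with a median of 1.27, and DESeq2 called 13. Thbs2, a thrombospondin that regulates fibril assembly, had 334, 258 and 213 normalized counts at 0 hours and 4496, 3132 and 4291 at 21 days (log2 fold change 3.89 ± 0.26 (SE), adjusted p = 0.00241). Wisp1, a secreted CCN family protein, had 7.42, 7.84 and 0 and 143, 129 and 159 (log2 fold change 4.84 ± 0.67 (SE), adjusted p = 0.0324), with 1 digit at 0 hours at no count. Sparc, a collagen-binding glycoprotein, had 7737, 5049.5 and 6598 and 28581, 18314 and 34586 (log2 fold change 2.07 ± 0.31 (SE), adjusted p = 0.0423). In all 3 genes the groups were apart, and they span the range from low to very high expression.

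The tenascins Tnn (3.22 ± 0.36) and Tnc (2.37 ± 0.32) were called, and so were genes of microfibrils and elastic fibres, namely Fbn2 (3.75 ± 0.30), Mfap2 (4.03 ± 0.61), Mfap4 (2.71 ± 0.33), Emilin1 (2.36 ± 0.26) and Fbln5 (2.09 ± 0.27). The fibrillin of foetal and repairing tissue, Fbn2, had 27.8, 13.7 and 17.4 normalized counts at 0 hours and 281, 239.7 and 248 at 21 days. Its adult relative Fbn1 had 4227, 2552 and 2132 and 2789, 2062 and 7328, with overlapping groups and an adjusted p of 0.935. Postn, which encodes periostin, had 2615, 659 and 908 against 10380.2, 13968 and 26459 and a log2 fold change of 3.60 ± 0.62, and with an adjusted p of 0.0744 it did not pass the test. Elastin, Eln, had 1.27 ± 0.38 and an adjusted p of 0.407, and fibronectin, Fn1, 0.72 ± 0.44 and 0.849. A difference between the members that were called and those that were not was not tested.

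Of 12 matrix proteoglycans 1 was called. Aspn, which encodes the small leucine-rich proteoglycan asporin, had 985, 682 and 518 normalized counts at 0 hours and 5470.1, 5178 and 14285 at 21 days (log2 fold change 3.51 ± 0.48 (SE), adjusted p = 0.0311). The third digit at 21 days was the highest by far, and all 3 exceeded the 0-hour digits. Lumican, Lum, had 1335, 515 and 374 against 4356, 1987 and 6943 with an adjusted p of 0.201, and decorin, Dcn, had 6717, 3226 and 2672 against 2682, 2086 and 7094 with overlapping groups. The list median was 1.92, and DESeq2 called 7 of the 12.

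Of 17 matrix metalloproteinases and their inhibitors 2 were called, and both are higher, where DESeq2 called 6. Mmp2, a gelatinase, had 1517, 1184 and 1115 normalized counts at 0 hours and 5825, 4184 and 8511 at 21 days (log2 fold change 2.28 ± 0.30 (SE), adjusted p = 0.0272). Mmp14, the membrane protease that activates it, had 647, 604 and 641 and 2261, 1337 and 2614 (log2 fold change 1.71 ± 0.25 (SE), adjusted p = 0.0397). The inhibitor Timp2 had a log2 fold change of 1.55 ± 0.26 with an adjusted p of 0.073, and Timp3 had -0.45 ± 0.40 with 0.912. Ctsk, the collagen-cleaving cathepsin K found in osteoclasts and also in fibroblasts, had 336, 168 and 160.2 and 1453, 1224 and 2867 (log2 fold change 3.07 ± 0.43 (SE), adjusted p = 0.0331). It was the 1 called gene of 11 tested osteoclast genes, where DESeq2 called 2 higher and 1 lower. In edgeR 3 of the 11 were higher and 1 was lower at an unadjusted p below 0.05. The list median was 0.345, and the summed level was 288.9 to 433 CPM at 0 hours and 417.7 to 556.6 at 21 days. Acp5, named after its values were seen and the tartrate-resistant phosphatase of osteoclasts, had 178, 91.1 and 66.5 normalized counts at 0 hours and 173, 186 and 143 at 21 days, and the calcitonin receptor gene Calcr had 0 counts in all 6 digits, a gene picked out after its values were seen. The part of osteoclasts in the change of Ctsk was not tested.

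Taking the 5 matrix lists as one, 100 genes were tested, 29 were called higher (29%, beside 0.394% of all genes tested) and 94 had a positive log2 fold change, with a median of 1.35. The lists were chosen with earlier results of these data known, so this contrast is no independent test. Of 13 tested fibroblast markers Col1a2 was the 1 called, and DESeq2 called 4. In edgeR 6 of the 13 were higher and none was lower at an unadjusted p below 0.05, and the list median was 0.663. Without Col1a2 the summed level of the list was 1399, 806 and 724 CPM at 0 hours and 1213, 766 and 2515 at 21 days, and the groups overlapped. Pdgfra, a growth factor receptor of fibroblasts named after its values were seen, had 751, 575 and 597 normalized counts at 0 hours and 779, 469.8 and 1088 at 21 days, with overlapping groups. The part of a change in the number of fibroblasts was not tested.

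**Figure D3:**
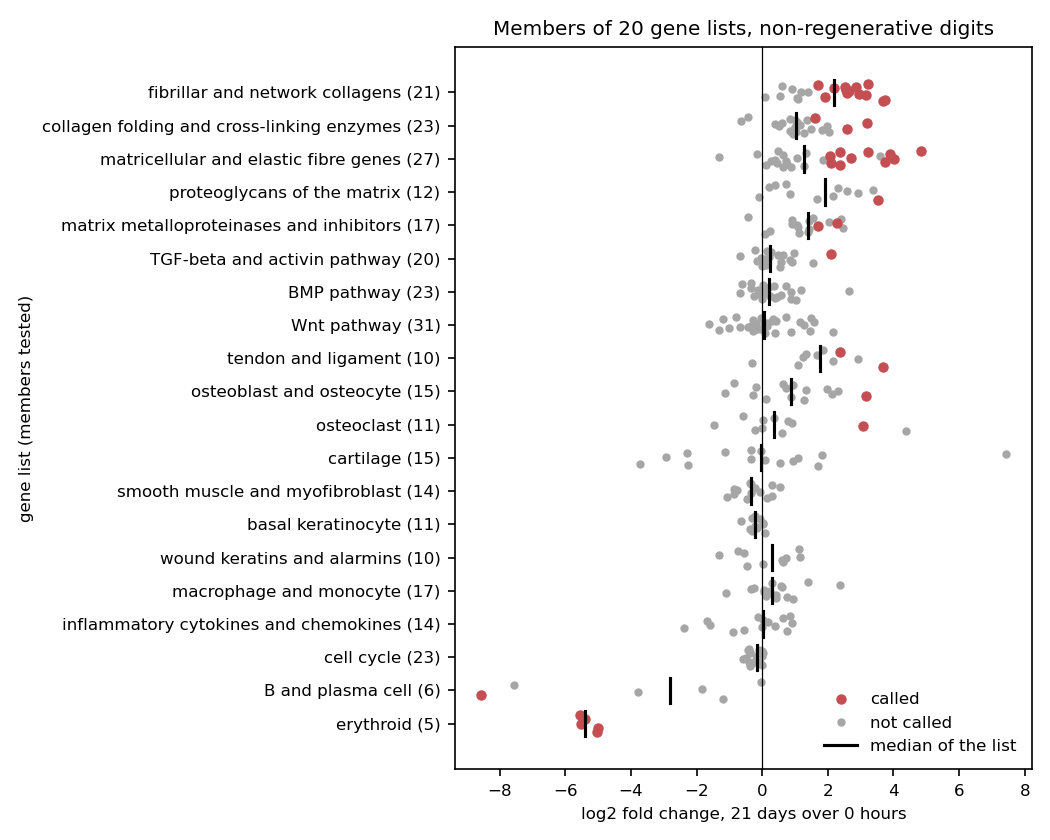
Log2 fold change of 21 days over 0 hours (horizontal axis) for the tested members of 20 gene lists (vertical axis, number of members tested in brackets), with called genes in red, others in grey and a black bar at the median of each list. The medians of the 5 matrix lists lie between 1.02 and 2.20 and that of the erythroid list at -5.39, while values of genes with no count in 1 group, such as Cd79a and Pax5, are fitted and no measured folds.

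The steepest rises included genes of secreted proteins with low levels in fresh stumps. Cpxm1, which encodes a carboxypeptidase-like secreted protein, had 1.85, 4.90 and 4.36 normalized counts at 0 hours and 381, 267 and 389 at 21 days (log2 fold change 6.40 ± 0.35 (SE), adjusted p = 0.00079). Cthrc1, a secreted collagen triple helix repeat protein, had 57.5, 29.4 and 38.1 and 871, 936 and 2519 (log2 fold change 5.14 ± 0.53 (SE), adjusted p = 0.0135). The level of Cpxm1 at 0 hours rests on 1, 5 and 4 counts, and that of Cthrc1 on 31, 30 and 35 counts. Itga11, the integrin chain that binds fibrillar collagen, had 16.7, 21.6 and 8.72 and 349, 144 and 269 (log2 fold change 4.01 ± 0.46 (SE), adjusted p = 0.0171). Mn1, a transcriptional regulator, had 7.42, 1.96 and 2.18 and 46.1, 67.5 and 53.7 (log2 fold change 3.98 ± 0.58 (SE), adjusted p = 0.0397).

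C1qtnf5 (3.89 ± 0.55) and C1qtnf6 (3.43 ± 0.35), a pair of secreted C1q-like proteins, were called as well. The exons of C1qtnf5 overlap those of Mfrp on the same strand, so its reads are uncertain. Cpz, a secreted carboxypeptidase, had 2, 1 and 1 counts at 0 hours and 36, 62 and 30 at 21 days, which is at least 6.44-fold higher against a floor of 3 counts in the smallest 0-hour library. Cpz and a further 15 called genes lie outside the rule for naming and were picked out after their values were seen. The 15 have log2 fold changes from 1.30 (the secreted protease gene Htra1) to 2.88 (Itgbl1). They are Itgbl1, Matn4, Adam12, Fndc1, Itm2a, Megf6, Pdgfrl, Clec11a, Svep1, Ppic, Myo7a, Lhfpl2, Aebp1, Nid1 and Htra1. For Megf6 the levels were 198, 148 and 178 against 939, 973 and 801.

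The 5 lists of signalling and patterning genes gave 1 call. Tgfb3, a TGF-beta ligand, had 208, 259 and 314 normalized counts at 0 hours and 1139, 885 and 1329.7 at 21 days (log2 fold change 2.10 ± 0.23 (SE), adjusted p = 0.0158), and it was the 1 of 20 genes of its pathway that was called. Its groups were far apart. The TGF-beta induced gene Tgfbi had 1027, 874 and 960.1 against 1792, 1708 and 2121 with an adjusted p of 0.0707. None of 23 BMP, 31 Wnt, 11 hedgehog and 20 limb patterning genes was called by edgeR, in which 2, 7, 1 and 3 had an unadjusted p below 0.05. DESeq2 called 2, 2, 0 and 1 of them, and the list medians were 0.20, 0.067, 0.15 and 0.46.

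The 5 tested erythroid genes were all called lower, beside 0.0583% of all genes tested. Alas2, which encodes the first enzyme of haem synthesis in red cell precursors, had 282, 285 and 279 normalized counts at 0 hours and 8.87, 7.14 and 9.69 at 21 days (log2 fold change -5.02 ± 0.24 (SE), adjusted p = 0.000659). The beta-globin gene Hbb-bs had 4125, 4541 and 4822 and 61.2, 24.6 and 236 (log2 fold change -5.39 ± 0.80 (SE), adjusted p = 0.0397), and Hbb-bt had 519, 807 and 780.3 and 5.32, 7.14 and 32.6 (log2 fold change -5.55 ± 0.62 (SE), adjusted p = 0.0158). Both beta-globin genes kept between 24.6 and 236 or between 5.32 and 32.6 normalized counts, and the groups were far apart. The alpha-globin gene Hba-a2 had 8368, 5574 and 4526 and 69.2, 49.2 and 281 (log2 fold change -5.53 ± 0.74 (SE), adjusted p = 0.0272), and Hba-a1 had 161, 344 and 282 and 2.66, 11.1 and 10.6 (log2 fold change -4.99 ± 0.51 (SE), adjusted p = 0.0135). Among the listed erythroid genes too low to be tested, the red cell anion exchanger gene Slc4a1, also picked out after its values were seen, had 3, 39 and 24 counts at 0 hours and 1, 0 and 0 at 21 days. Each pair of globin genes is nearly identical in sequence, so how their reads were split within a pair is uncertain. Exons of 2 genes on the other strand, Apex2 among them, overlap Alas2. The summed level of the erythroid list was between 1066 and 1321 CPM at 0 hours and between 10.4 and 57.7 at 21 days, with the third digit at 21 days the highest for each globin gene but Hba-a1.

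Cd79a, a chain of the B-cell receptor complex, had 19, 37 and 63 counts at 0 hours and 0 in all 3 digits at 21 days, which is at least 17.6-fold lower against 3 counts (edgeR adjusted p = 0.0358). The B-cell genes Cd79b and Pax5 had 20.4, 16.7 and 27.2 and 16.7, 13.7 and 39.2 normalized counts at 0 hours, and 0, 0 and 4.40 and 0 in all 3 digits at 21 days, and did not pass the test with adjusted p of 0.312 and 0.102. Of the 6 tested B and plasma cell genes 1 was called lower by edgeR and 3 by DESeq2, and 4 were lower at an unadjusted p below 0.05 in edgeR. The list median was -2.81, and the summed level of the list was 380 to 463 CPM at 0 hours and 341 to 459 at 21 days, carried by Sdc1, which keratinocytes express as well.

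None of 15 tested Schwann cell and nerve genes was called by edgeR or DESeq2, and 2 had an unadjusted p below 0.05 in edgeR. The neutrophil list (5 tested), the T and NK cell list (3 tested) and the haematopoietic progenitor list (3 tested) had no called gene in edgeR, where 1, 1 and 0 had an unadjusted p below 0.05, and DESeq2 called 1 neutrophil gene. The part of blood or marrow left in the fresh stump in these 8 changes was not tested.

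Genes of inflammation and of wound epidermis gave no call at 21 days. None of 17 macrophage and monocyte, 14 inflammatory cytokine and chemokine, 16 complement, 12 type I interferon and 13 antigen presentation genes was called by edgeR, and 2, 2, 2, 1 and 0 of them had an unadjusted p below 0.05. DESeq2 called 1, 1, 1, 1 and 0. The macrophage gene Csf1r had 245, 242 and 199 normalized counts at 0 hours and 183, 175 and 443 at 21 days. Of 10 wound keratin and alarmin genes none was called by edgeR or DESeq2 or had an unadjusted p below 0.05, and the summed level was 1773 to 2417 CPM at 0 hours and 1353 to 5229 at 21 days. Krt6a, the keratin of activated keratinocytes, had 8526, 9153 and 7119.6 normalized counts against 21856, 11301 and 7549.6, and Krt6b had 1550.5, 4163 and 3037 against 10551, 7133 and 1958. In both, the first 21-day digit was the highest and the third was within the range of 0 hours.

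The basal and differentiating keratinocyte, cell cycle, smooth muscle and myofibroblast, and endothelial lists (11, 21, 23, 14 and 16 tested) had no gene called by edgeR or DESeq2, and 0, 2, 1, 0 and 1 with an unadjusted p below 0.05 in edgeR. The basal keratinocyte list summed to 10530 to 11830 CPM at 0 hours and 9167 to 11210 at 21 days. Its median log2 fold change was -0.20, and that of the differentiating list was -0.11. The proliferation marker Mki67 had 2405, 3056 and 2687 normalized counts at 0 hours and 2030.4, 2324 and 1901 at 21 days, and the cell cycle list had a median of -0.15. The smooth muscle and myofibroblast list had a median of -0.34. Acta2, the actin of myofibroblasts and vessel walls, had 2912, 682 and 1539.9 against 1099, 780.1 and 1842, with overlapping groups. The endothelial list had a median of 0.15. A p that misses the threshold does not show that these genes kept their level.

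Nail and skeletal genes differed between digits of one time. The summed hard keratin and nail list was 5363, 18700 and 307.5 CPM in the 3 digits at 21 days and 6443, 487 and 1566 at 0 hours. Krt84, a hard keratin of nail, had 21159.8, 26279 and 333 normalized counts at 21 days and 2426, 613 and 4232 at 0 hours (adjusted p = 0.745 in edgeR). Prg4, the lubricin of joint surfaces, had 7737, 1476 and 3894 at 0 hours and 1715, 179 and 773 at 21 days (adjusted p = 0.588). None of the 15 tested cartilage genes was called by edgeR, 3 were higher and 4, Prg4 among them, were lower at an unadjusted p below 0.05, and DESeq2 called 1 higher and 1 lower. Matn3, a cartilage matrilin named after its values were seen, had 0 counts in all 3 digits at 0 hours and 19.5, 11.9 and 32.6 normalized counts at 21 days. The spread within 21 days was wider than the gap between the groups for the hard keratins, and the third 21-day digit was the lowest of the 6.

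Of 15 tested osteoblast and osteocyte genes, Col1a1 alone was called by edgeR, and fibroblasts express it as well. DESeq2 called 3 higher, and in edgeR 4 were higher and none was lower at an unadjusted p below 0.05. Ibsp, whose values are given above, had an adjusted p of 0.475 in edgeR. Bglap, which encodes osteocalcin of mature osteoblasts, had 147, 27.4 and 30.5 normalized counts at 0 hours and 185, 2.38 and 27.3 at 21 days, and Alpl, alkaline phosphatase, had 167, 67.6 and 34.9 and 504, 68.2 and 65.2. In all 3 genes the first 21-day digit was the highest, and the other 2 were far below it. The summed level of the list was 670.5 to 1183 CPM at 0 hours and 4071 to 9416 at 21 days, most of which was Col1a1. Tendon and ligament genes gave 2 of 10 called higher, beside 0.394% of all genes tested. The 2 are Col11a1 and Tnc, both of which are members of the matrix lists too. In edgeR 9 of the 10 were higher at an unadjusted p below 0.05 and none was lower, with a list median of 1.77. DESeq2 called 5 higher.

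The levels at 21 days were set beside those at the times between. The 14-day digit with a labelled amputation level of 77% and the 7-day digit with 65% were least like the other digits. Each is replicate 2 of its time in the numbering used here, which the labels do not carry. Their median Spearman correlation to the other digits was 0.593 and 0.741, against 0.864 or more for every other non-regenerative digit. The summed level of the 54 genes called higher was 4727 to 6967 CPM at 0 hours and had a median of 3145 at 24 hours, with 2173, 3145 and 4315 in the 3 digits. It was 6950 to 16860 at 3 days, 11550 to 66470 with a median of 21340 at 7 days, and 52750 to 83320 at 14 days. At 21 days the digits had 39850, 24460 and 48740. Every 21-day digit was therefore below every 14-day digit and above every digit of the first 3 days in this sum.

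By gene, 50 of the 54 had their highest median at 14 days, 3 at 21 days (Aspn, Col24a1 and Pdgfrl) and 1 at 12 hours (Tnc). Without the 2 digits that stand apart, 51 peaked at 14 days and 3 at 21 days. The median of the 21-day over the 14-day level was 0.643 over the 54 genes, and 0.594 without those digits. Every 21-day digit was below every 14-day digit for 14 of the 54, beside 5.66% of all genes tested, and for 30 without the 14-day digit that stands apart, beside 13.9%. For 50 of the 54, every 21-day digit was above every digit of 0 to 24 hours, beside 1.7% of all genes tested, and the 54 were chosen on 6 of these digits. The level of Tnc was 239.8, 382 and 508 CPM in the 12-hour digits, 348, 75.1 and 559 CPM in the 14-day digits, and 123, 72.7 and 151 CPM in the 21-day digits. That of Col1a1 was 129.5, 288 and 388 CPM in the 24-hour digits, 18670.0, 22790.0 and 11160.0 CPM in the 14-day digits, and 8681, 3955 and 6799 CPM in the 21-day digits. These are levels only, since every time point is read against the same 3 digits at 0 hours.

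The 8 genes called lower were down early. Their sum was 1360, 1192 and 1107 CPM at 0 hours, 302, 97.7 and 259 at 3 hours, and 51.3, 32.0 and 196 at 24 hours. It was 8.35 to 125.3 at 14 days and 15.5, 10.6 and 59.9 at 21 days, and the highest value at 14 days belongs to the digit that stands apart. For 7 of the 8 genes every 24-hour digit was below every 0-hour digit, beside 19.6% of all genes tested, and the 8 were chosen for high levels in the same 0-hour digits.

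**Figure D4:**
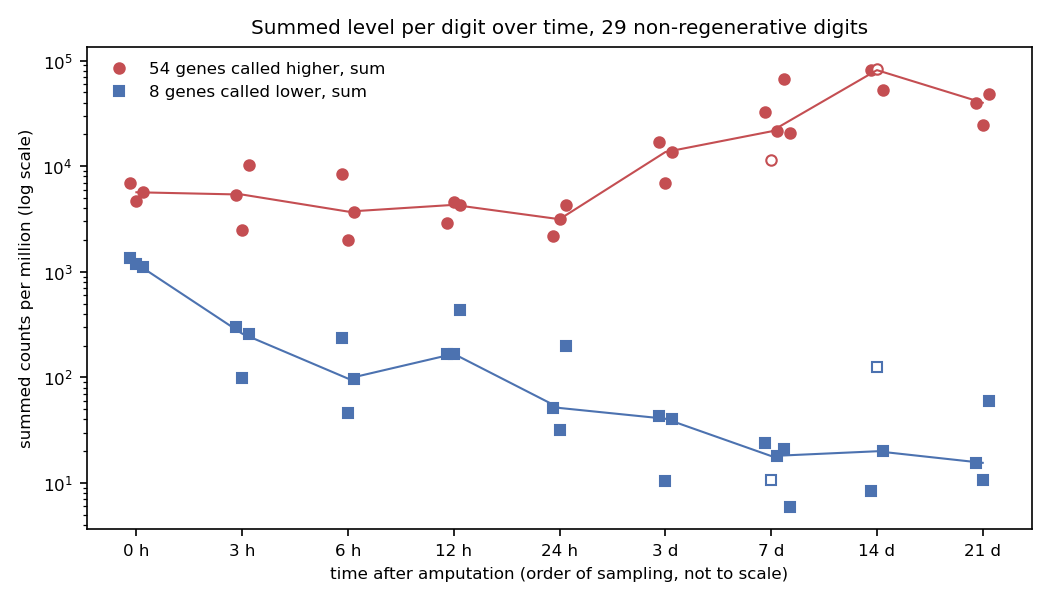
Summed CPM on a log scale (vertical axis) of the 54 genes called higher (red circles) and the 8 called lower (blue squares) in each of the 29 non-regenerative digits by time after amputation (horizontal axis, not to scale), with lines through the medians and open symbols for the 2 digits least like the others. The 54 genes reach their highest median at 14 days and lie lower at 21 days, and the 8 genes have dropped by 3 hours.

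Intermediate digits give a pair of groups with no sample in common with the 6 digits above. They are labelled Medium, with amputation levels of 48% to 55% of P3, again with 3 digits at 21 days and 3 at 0 hours. Here 164 genes were called higher (1.23% of 13360) and 22 lower (0.165%). The 46 genes called higher in both are 85.2% of the 54 and 28% of the 164. All 54 had a positive log2 fold change in the intermediate digits, from 1.02 to 4.62 with a median of 2.43. The 6 genes called lower in both are 75% of the 8 and 27.3% of the 22, and they include the 5 erythroid genes. Genes that were called in the non-regenerative digits and did not pass in the intermediate ones were Cpz, Mn1, Emilin1, Clec11a, Myo7a, Fbln5, Serpinh1 and Htra1. In the intermediate pair the dates were split the other way, since 2 digits at 0 hours and all 3 at 21 days were of the earlier dates.

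The difference between the changes was tested gene by gene in 1 fit of the 12 digits. None of 14295 genes passed with edgeR, in which the smallest adjusted p was 0.772 and 846 genes had an unadjusted p below 0.05. DESeq2 called 9, and Cpxm1 was the 1 of them among the 62 genes. Over the 54 genes the difference ranged from -0.54 to 2.80 on the log2 scale with a median of 0.083, and 4 had an unadjusted p below 0.05. Cpxm1 had 19.7, 25.1 and 33.7 normalized counts at 0 hours and 381, 207 and 337 at 21 days in the intermediate digits, where its log2 fold change was 3.59 ± 0.32. The difference of the changes was 2.80 ± 0.51 (unadjusted p = 0.00011 in edgeR). Normalized counts were scaled within each pair of groups, so levels of the 2 pairs are not on the same scale. As scaled, the Cpxm1 values at 0 hours were all lower in the non-regenerative digits, and at 21 days the values overlapped. The other 3 were Mn1 (2.48 ± 0.99), C1qtnf5 (1.58 ± 0.64) and Megf6 (0.86 ± 0.38).

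Of the 15 osteoblast and osteocyte genes tested in both pairs, 10 were called higher in the intermediate digits, beside 1.23% of all genes tested there. In the non-regenerative digits 1 was called higher, beside 0.394% of all genes tested, and DESeq2 called 3 of this list. The median over these 15 was 2.07 in the former and 0.89 in the latter. Bglap had 11.43, 20.95 and 81.09 normalized counts at 0 hours and 392, 326 and 277 at 21 days there, a log2 fold change of 3.27 ± 0.57. The difference of its changes was -3.10 ± 1.49 with an unadjusted p of 0.059 in edgeR, and it did not pass after adjustment. For Ibsp the difference was -0.47 ± 0.93, and for Spp1, osteopontin, -1.35 ± 0.82. None of these 3 differences passed, and intervals this wide leave their size unresolved. Hbb-bt was at 0 counts in all 3 intermediate digits at 21 days, for which no fold change is given.

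**Figure D5:**
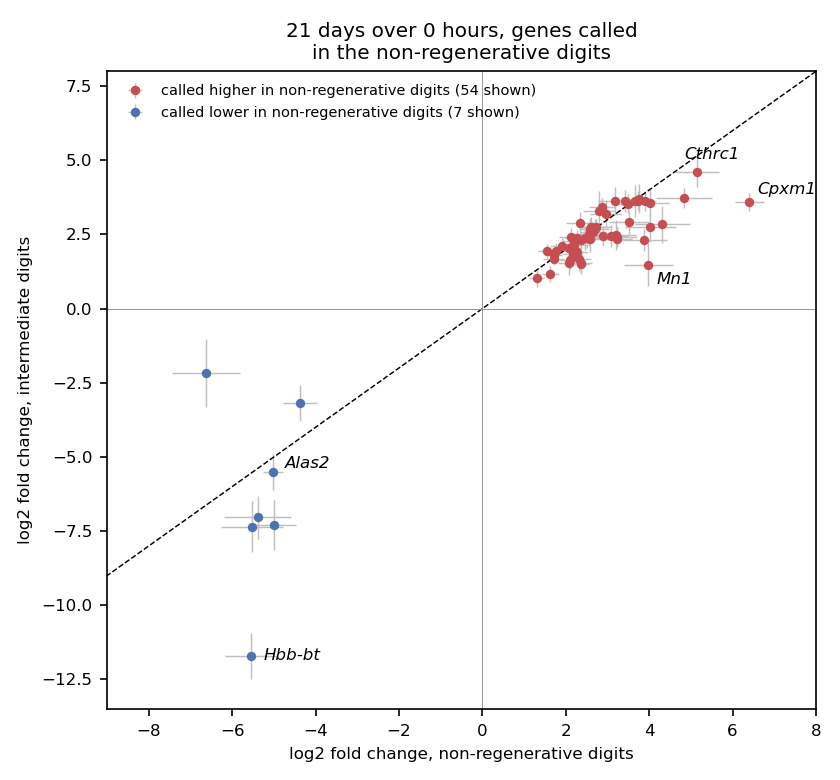
Log2 fold change of 21 days over 0 hours in intermediate digits (vertical axis) against that in non-regenerative digits (horizontal axis), with bars of 1 SE, for the 54 genes called higher (red) and 7 of the 8 called lower (blue) in the latter, and a dashed line of equal change. All 61 genes lie on the same side of 0 in both, Cpxm1 and Mn1 lie below the line, and the vertical value of Hbb-bt is fitted to a group at 0.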

How the data were processed

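Polyadenylated RNA of mouse digit wound beds was sequenced single-end, and the authors aligned reads with Bowtie and estimated gene levels with RSEM 1.2.3. CASAVA and mm10 are named in the submitters' processing notes. The authors deposited an expected count per gene, and in a second file a signal, TPM scaled between libraries by the authors. Whether counting used the strand is not given in the sources used here. The macrophage tables of the series were not used, and EBSeq, which the authors used for their tests, was not run.

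Groups came from the labels, and the members and gene lists were chosen with earlier results of these data known. Expected counts were rounded. Of 21954 genes (26 names restored from dates), those passing filterByExpr were normalised by TMM and tested with the quasi-likelihood test of edgeR 4.0.16 in R 4.3.3, comparing only the 6 digits. A gene was called at an adjusted p below 0.05 (Benjamini-Hochberg) and more than 2-fold between mean normalized counts plus 1. Totals per digit (4747702 to 13011782) set the precision of low counts, and floors of 3 counts cover counting error only. The intermediate digits were fitted the same way, and the difference of the changes as an interaction over the 12 digits. The steps were tested on simulated data. Some of the called genes are not reported here by name.

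Genes named were, among called genes whose groups did not overlap and whose mean was at least 50 normalized counts in the higher group, the 15 largest rises and the 15 largest falls, then called members of the lists, up to 4 further members of a list by mean level, and the defining tissue markers, passing over placeholder names. Limma 3.58.1 and DESeq2 1.42.0 served as alternatives, with other filters, normalizations, left-out digits and pseudocounts (1 or 0.1, on log2 TPM). Calls of single lists by DESeq2 and within the later dates, levels without 2 digits and the fibroblast sum without Col1a2 were added after seeing the data. Positions are from GENCODE and promoters from RefSeq (GRCm38.p6).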

Additional observations from a re-analysis of the deposited data

Results flagged for a closer look

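At 7 days after amputation, the only time with 5 non-regenerative digits, 13 sets of values were checked for a digit far from the others, by a gap to its neighbour above 0.71 of the range, which chance alone gives in about 1 of 20 sets. The methods describe 3 mice per time point and the labels include left and right digits, so some of these 5 digits may come from the same mouse. In 4 of the sets a digit was far from the rest. The summed level of the osteoblast and osteocyte list was 12280 CPM in 1 digit against 3939 to 6353 in the others. The summed level of the hard keratin and nail list was 5016 in another digit against 148 to 1358. Aspn, which encodes asporin, was at 1039 CPM in 1 digit against 182 to 417. The median Spearman correlation of a digit with the other digits was 0.741 for replicate 2 against 0.889 to 0.93 for the others. None of the 6 digits compared at 0 hours and 21 days is among these, and groups of 3 digits were not checked in this way.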

How the results depend on the processing

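All 62 genes kept their direction in each of the 17 alternatives of the 21-day comparison that tested them, and the number called was the part that moved. Against 62 calls, DESeq2 gave 252 (183 higher, 69 lower, so 72.6% higher against 87.1%), 1 fit of all 41 digits gave 33, limma on normalized TPM gave 29 with a pseudocount of 0.1 and 16 with no filter, and 1 fit of the 29 non-regenerative digits gave 9, or 5 with the amputation level. The other normalization, voom, no filter on counts, the date period, normalized TPM plus 1 and no fold threshold gave 42 to 85. Leaving out 1 digit gave 4 to 77 calls (37, 5 and 4 without replicates 1, 2 and 3 at 0 hours, and 13 and 28 without replicates 1 and 3 at 21 days), and fewer digits leave fewer degrees of freedom. For the intermediate digits, against 186 calls, DESeq2 gave 413, no filter 291, and 1 fit of all 41 digits 25 with or without the date period. Leaving out 1 of these digits gave 45 to 280, with the lowest and highest values without replicate 2 and replicate 3 at 0 hours, and 81 and 96 without replicates 1 and 3 at 21 days. For the difference of the changes, DESeq2 gave 9 calls against 0, and leaving out 1 digit gave 0 to 0. Genes called higher in both pairs numbered 46, and 18 to 134 under the alternatives. The cause of these shifts was not tested. Bglap, at 0.11 and not called, turned to -0.93 with voom, -0.28 and -0.25 without replicate 2 or 3 at 0 hours, -2.19 without replicate 1 at 21 days, -0.89 on normalized TPM plus 1 with or without the filter and -1.15 with 0.1. Krt5, at 0.03 and not called, turned to -0.063 with the date period, -0.056 without replicate 1 at 0 hours, -0.069 without replicate 1 at 21 days and -0.087 with the amputation level. With 1 digit left out, Bglap ranged from -2.19 to 1.28 and Krt5 from -0.069 to 0.10. Of the other values of named genes under an alternative, 497 stayed on their side of the threshold and 357 were no longer called. No paired analysis was possible, since each digit was collected at 1 time and the methods count mice by time point. The digit labels carry no replicate number, and what their codes such as R1 and L1 mean is unknown, with R1 given to more than 1 digit at 0 hours. Library totals limit genes with few counts, and arms of 3 digits limit the rest.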
